A study of Mus musculus with 10 samples.

Results

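Transcripts of 35 interferon response and inflammatory genes were examined in the posterior wall of the left ventricle of mice without the melanocortin 4 receptor (MC4R-/-) and of WT mice. The genes were chosen by name, as 21 targets of interferon and 14 cytokines, chemokines and other genes of the NF-kB type, and each was found as 1 of the 24160 gene rows of the expression table. The labels give 6 MC4R-/- and 4 WT libraries of polyadenylated RNA. Both groups were C57BL6/J mice aged 30 weeks, born to heterozygous parents and kept at 24 °C, and the labels do not describe how the receptor allele was made. The title of the series names dilated cardiomyopathy in mice without this receptor, and the question here is whether transcripts of inflammation differ between the genotypes.

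Interferons are secreted proteins that bind receptors on the cell surface and act through the kinases JAK1, JAK2 and TYK2. Type I interferons lead to transcription factor complexes on the interferon-stimulated response element (ISRE), and type II interferon to factors on the gamma-activated site (GAS). NF-kB is a family of transcription factors held in the cytoplasm by inhibitors such as IkB-alpha, the product of Nfkbia, and released after signals from TNF, interleukin 1 or Toll-like receptors. In the heart, cytokines and chemokines of this type come from macrophages, endothelial cells, fibroblasts and cardiomyocytes.

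The libraries held 4145033 to 6425785 reads assigned to genes, and levels are given as normalized counts, which are reads scaled by the size factor of their library. Mc4r had 4 reads in all 6 MC4R-/- libraries and 2 in all 4 WT libraries, with at most 2 in a library, so its level checks no label (exact permutation p = 0.833). The summed level of 10 cardiomyocyte markers was 513288 to 566253 in MC4R-/- and 530259 to 576941 in WT libraries. Whether every library is a different animal is not stated in the labels, and p-values here cover only the variation among these samples, which may be technical. The samples are bulk tissue, where fewer cells of a type and less RNA per cell cannot be told apart.

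WT replicate 2 stood apart. Its summed level of T and NK cell markers was 1053, against 62.7 to 101 in the other 9 libraries. Cd3e, Cd3d and Cd3g, genes of the CD3 subunits of the T-cell receptor complex, were at 107, 96.6 and 144 in WT replicate 2. The T-cell kinase gene Lck was at 273 and Cd4 at 253. Cd8a was at 2.71 there, against 0 to 7.23 elsewhere. The cytotoxic genes Nkg7 and Gzmb were at 0 in WT replicate 2 and at most 4.89 and 3.85 elsewhere, and the NK receptor gene Ncr1 was at 0 in every library. Values without WT replicate 2 are also given for several members. The summed level of 5 atrial markers was highest in MC4R-/- replicate 5, at 3155. Its median over the MC4R-/- libraries was 743, and WT libraries were at 505 to 1338. An alternative fit left out WT replicate 2 and MC4R-/- replicate 5 together.

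Promoter sequences are shown for 7 members that stand for the regulatory motifs of both classes. They are the bases just before the annotated start, read from RefSeq on GRCm38.p6 and written 5′ to 3′ on the strand of the gene, with motif matches in capitals. Isg15 (chr4:156200819-156200918, minus strand) and Ifit1 (chr19:34640769-34640888, plus strand) hold ISRE matches. Irf1 (chr11:53769914-53770013, plus strand), Psmb8 (chr17:34198095-34198194, plus strand) and Icam1 (chr9:21015840-21015939, plus strand) hold GAS matches. Nfkbia (chr12:55492648-55492747, minus strand) and Cxcl1 (chr5:90891145-90891244, plus strand) hold NF-kB matches. The window of Irf1 shown is the first of its annotated starts.
Isg15: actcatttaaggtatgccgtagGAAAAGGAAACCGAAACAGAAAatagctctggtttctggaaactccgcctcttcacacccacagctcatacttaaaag
Ifit1: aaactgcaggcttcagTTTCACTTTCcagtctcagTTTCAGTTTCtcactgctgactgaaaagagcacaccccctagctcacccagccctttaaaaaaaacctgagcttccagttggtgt
Irf1: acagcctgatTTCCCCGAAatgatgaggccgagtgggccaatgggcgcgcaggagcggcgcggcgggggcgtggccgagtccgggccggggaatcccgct
Psmb8: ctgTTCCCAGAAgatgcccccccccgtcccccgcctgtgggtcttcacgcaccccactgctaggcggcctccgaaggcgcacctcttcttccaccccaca
Icam1: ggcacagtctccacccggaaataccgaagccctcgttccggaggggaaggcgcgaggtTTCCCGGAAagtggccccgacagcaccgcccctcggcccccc
Nfkbia: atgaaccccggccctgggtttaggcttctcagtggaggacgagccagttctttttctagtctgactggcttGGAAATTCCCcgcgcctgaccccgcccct
Cxcl1: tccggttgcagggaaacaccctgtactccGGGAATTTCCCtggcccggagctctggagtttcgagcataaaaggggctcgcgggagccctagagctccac

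The motifs were searched on both strands in windows from 250 bases before to 50 after the start. The ISRE was written TTTCNNTTTC, the GAS TTCNNNGAA and the NF-kB motif GGGANNTTCC, and N stands for any base. Among 32817 promoter windows of 300 bases, 3.43% held the ISRE, 8.29% the GAS and 1.47% the NF-kB motif. Of the 19 interferon targets with a window, 11 held the ISRE, 5 the GAS and 3 the NF-kB motif. Of the 10 NF-kB type genes with a window, 2 held the ISRE, 1 the GAS and 4 the NF-kB motif. The capitals of Isg15 hold 3 overlapping ISRE matches, and those of Cxcl1 hold an NF-kB match on each strand. Usp18, Rtp4, Ccl2, Ccl7, Ccl5 and Vcam1 had no window in the table. A match describes the letters and does not show a bound factor.

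Of the 35 members, 33 had a mean of at least 1 normalized count and were tested, and Il6 and Saa3 fell short of it. With limma, 0 of the 33 passed an adjusted p of 0.05, against 0.459% of the 14611 genes tested. At an unadjusted p below 0.05 there were 5, Psmb8, Tnf, Ccl7, Icam1 and Lcn2, against 9.6% of all genes tested. Their exact permutation p, in that order and also unadjusted, was 0.0714, 0.1, 0.081, 0.00952 and 0.114. The smallest p that the permutation test can give is 0.00476. In 0 members did the MC4R-/- and WT libraries fail to overlap, against 2.28% of all genes tested. edgeR and DESeq2 also called 0 members after adjustment, against 0.411% and 1.18% of the genes for which they gave an adjusted p. DESeq2 gave no adjusted p for Isg15, Oas1a, Usp18, Ifi44, Il1b, Tnf, Ccl2, Ccl7, Ccl5, Cxcl1, Cxcl10 and Lcn2, which had low counts. Among the NF-kB type genes, its result therefore covers only Cxcl9, Nfkbia, Icam1 and Vcam1. The library totals limit this comparison for low genes, since 28 members had a mean of at least 10 and 5 had 0 reads in some library.

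**Figure D1:**
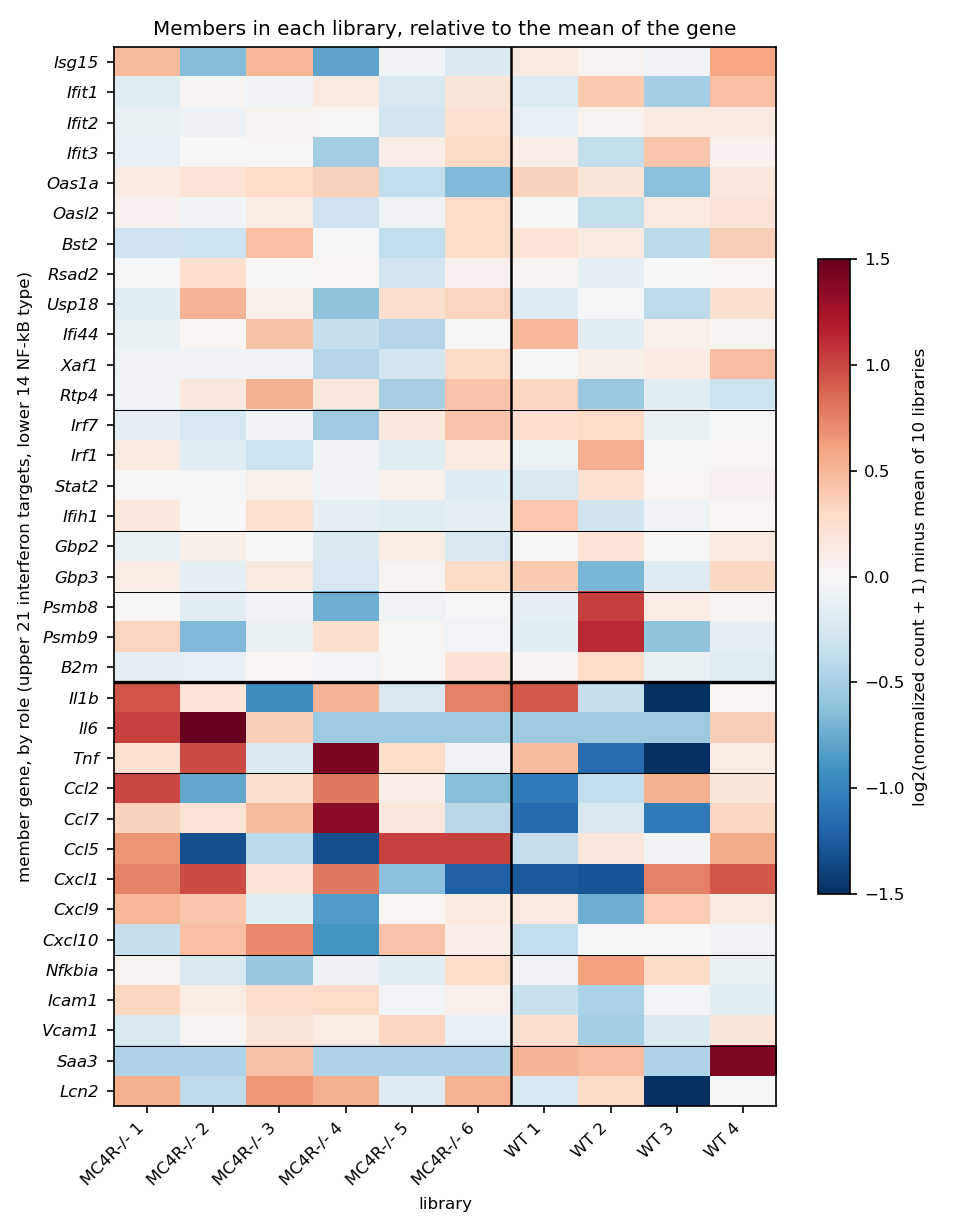
Heat map of the 35 members (rows, by role, with the 21 interferon targets above the thick line) in 6 MC4R-/- and 4 WT libraries (columns), as log2(normalized count + 1) minus the mean of the gene over the 10 libraries, with values beyond 1.5 either way drawn at the end of the scale. Psmb8 and Psmb9 stand out in WT replicate 2, and the pale rows of the interferon targets contrast with the deeper colours of the low cytokine and chemokine genes.

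The interferon targets differed little between the genotypes. Of 21 tested, 5 were higher and 16 lower in MC4R-/-, and the median log2 fold change was -0.08, beside -0.01 over all genes tested, of which 7072 were higher and 7539 lower. The values ran from -0.44 to 0.30, and 0 passed the adjusted threshold with limma. At an unadjusted p below 0.05 there was 1 by limma, 1 by edgeR and 1 by DESeq2, against 9.6%, 10.1% and 8.32% of all genes. The count by limma was 0 without WT replicate 2, WT replicate 3, MC4R-/- replicate 2 or MC4R-/- replicate 4, and 2 without WT replicate 1. The 95% confidence interval lay within a 2-fold change either way for all 21 and within 1.5-fold for 13. Over all 14611 genes tested, the same held for 11882 and 9575. The mean log2 level of the class was 5.91 to 6.21 in MC4R-/- and 6.0 to 6.23 in WT libraries, so the groups overlapped.

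Among the 12 antiviral effectors, 4 were higher and 8 lower, with a median log2 fold change of -0.06. The most abundant was Rsad2 (chr12:26442743-26456452), whose product viperin makes a nucleotide that ends viral RNA chains. Its normalized count was 156 at the lowest, 193 at the median and 227 at the highest of the 6 MC4R-/- libraries, and 195, 173, 189.7 and 194 in WT replicates 1 to 4. The WT values all lay inside the MC4R-/- range, and the log2 fold change was 0.03 ± 0.10 (SE; limma adjusted p = 0.96).

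Isg15 (chr4:156199424-156200818), a ubiquitin-like modifier attached to proteins after interferon, was the antiviral effector furthest from 0. It was at 11.2 at the lowest, 18.2 at the median and 28.7 at the highest of the MC4R-/- libraries, and at 22.1, 20.8, 19.4 and 30.8 in WT. The libraries overlapped widely, and the log2 fold change was -0.30 ± 0.27 (SE; limma adjusted p = 0.771). Ifit1 (chr19:34640889-34650009), which binds viral RNA ends, was at 29.9 ± 3.71 (SD, n = 6) in MC4R-/- and 32.0 ± 10.2 (SD, n = 4) in WT. The other 9 effectors had log2 fold changes from -0.27 (Xaf1, an inhibitor of XIAP) to 0.30 (Rtp4, a receptor transporter protein induced by interferon), with limma adjusted p from 0.677 to 0.995. The Rtp4 value was 0.17 without WT replicate 2. Oas1a, a sensor of double-stranded RNA, and Ifit3 have near-identical copies, so reads could be split between them.

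All 4 members that sense RNA or act as transcription factors had values below 0, with a median log2 fold change of -0.10. Irf1 (chr11:53770014-53778374) encodes a factor induced by type II interferon. It was at 151 at the lowest, 175 at the median and 207 at the highest of the MC4R-/- libraries, and at 176, 274, 184 and 192 in WT replicates 1 to 4. WT replicate 2 was above every other library and the other 3 WT libraries lay inside the MC4R-/- range. The log2 fold change was -0.18 ± 0.12 (SE; limma adjusted p = 0.675) and -0.04 without WT replicate 2. Irf7, the factor that amplifies type I interferon, Stat2 and Ifih1, which encodes the RNA sensor MDA5, had -0.17, -0.04 and -0.02.

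The guanylate-binding proteins are GTPases that attack the vacuoles of intracellular pathogens. Gbp2 (chr3:142620663-142638008) was at 123 at the lowest, 140 at the median and 157 at the highest of the MC4R-/- libraries, and at 146, 167, 147 and 159 in WT. The WT values lay in the upper part of the MC4R-/- range or above it. The log2 fold change of Gbp2 was -0.15 ± 0.10 (SE; limma adjusted p = 0.703) and that of Gbp3 was 0.07 ± 0.17 (SE; limma adjusted p = 0.933). Without WT replicate 2 the Gbp3 value was -0.14.

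The 3 members of class I antigen presentation were each highest in WT replicate 2. Psmb8 (chr17:34198195-34201454), a catalytic subunit of the immunoproteasome, was at 45.8 at the lowest, 73.5 at the median and 76.3 at the highest of the MC4R-/- libraries, and at 69.3, 158, 83.1 and 79.2 in WT replicates 1 to 4. Its log2 fold change of -0.44 ± 0.20 (SE; limma adjusted p = 0.49) was -0.18 without WT replicate 2, with an adjusted p of 0.773. Psmb9 (chr17:34182030-34187330), another such subunit, was at 30.0 ± 6.83 (SD, n = 6) in MC4R-/- and at 26.9, 66.8, 19.4 and 27.3 in WT. Its log2 fold change turned from -0.09 to 0.26 without that library.

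B2m (chr2:122147687-122153082), the light chain of class I molecules, was the most abundant member. It was at 1242 at the lowest, 1344 at the median and 1576 at the highest of the MC4R-/- libraries, and at 1393, 1660, 1261 and 1202 in WT. Its log2 fold change of -0.02 ± 0.08 (SE; limma adjusted p = 0.974) was 0.08 without WT replicate 2. The high level in that library was shared by other class I genes. WT replicate 2 was the highest library for 10 of the 16 other class I genes tested. The same held for 12 of 55 other interferon-stimulated genes and 0 of the 12 antiviral effectors, beside 3 of 10 cardiomyocyte and 0 of 10 endothelial markers. Such a share over all genes was not counted. The peptide transporter Tap1, whose GENCODE gene model overlaps that of Psmb9 on the other strand, was at 172 in WT replicate 2 against at most 101 elsewhere. Nlrc5, the activator of class I genes, was at 96.6 there against at most 56.8 elsewhere. The part of the T-cell transcripts in these values was not tested.

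**Figure D2:**
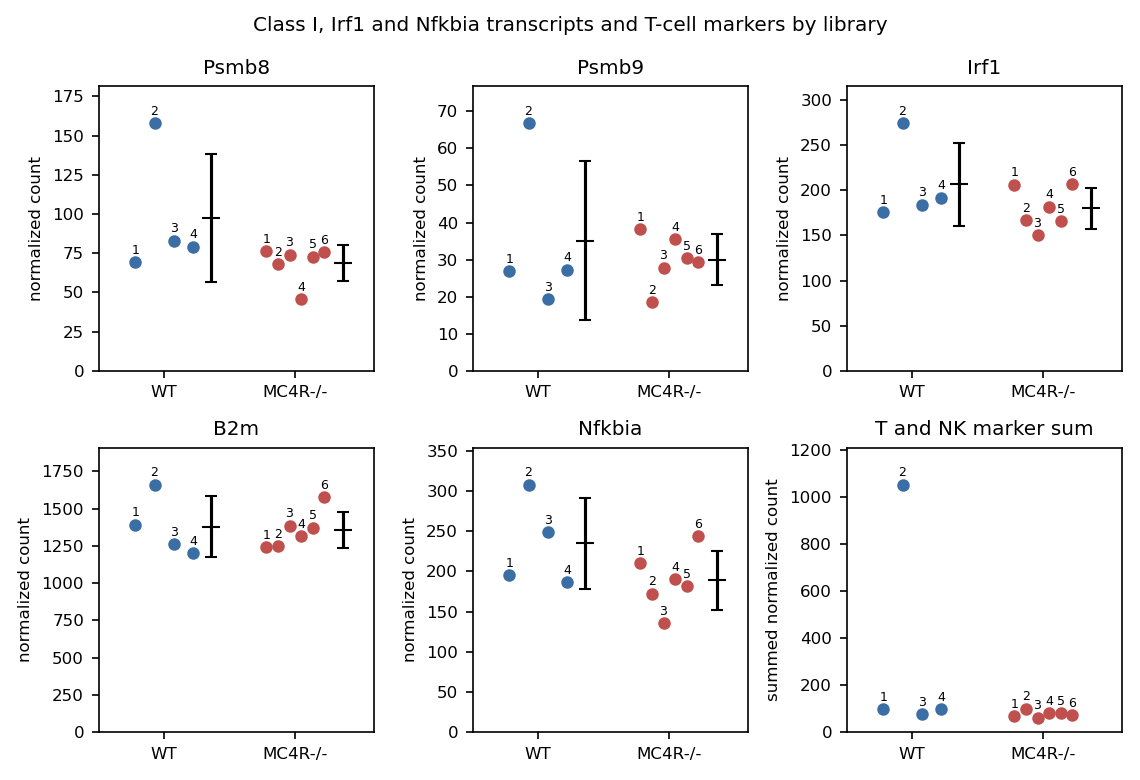
Normalized counts of Psmb8, Psmb9, Irf1, B2m and Nfkbia, and the summed normalized count of T and NK cell markers, in each WT (blue) and MC4R-/- (red) library, numbered by replicate, with the mean ± SD beside each gene and no mean drawn for the marker sum. WT replicate 2 is the highest point in all 6 panels.

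The NF-kB type genes were more often higher than lower, with wide intervals. Of 12 tested, 10 were higher and 2 lower in MC4R-/-, with a median log2 fold change of 0.33 and a range from -0.30 to 1.09, and 0 passed the adjusted threshold with limma. At an unadjusted p below 0.05 there were 4 by limma, 2 by edgeR and 3 by DESeq2, against 9.6%, 10.1% and 8.32% of all genes. The count by limma was 1 without MC4R-/- replicate 4 and 1 without WT replicate 3. The interval lay within a 2-fold change either way for 4 of the 12. The mean log2 level of the class was 3.98 to 4.34 in MC4R-/- and 3.53 to 4.12 in WT libraries.

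**Figure D3:**
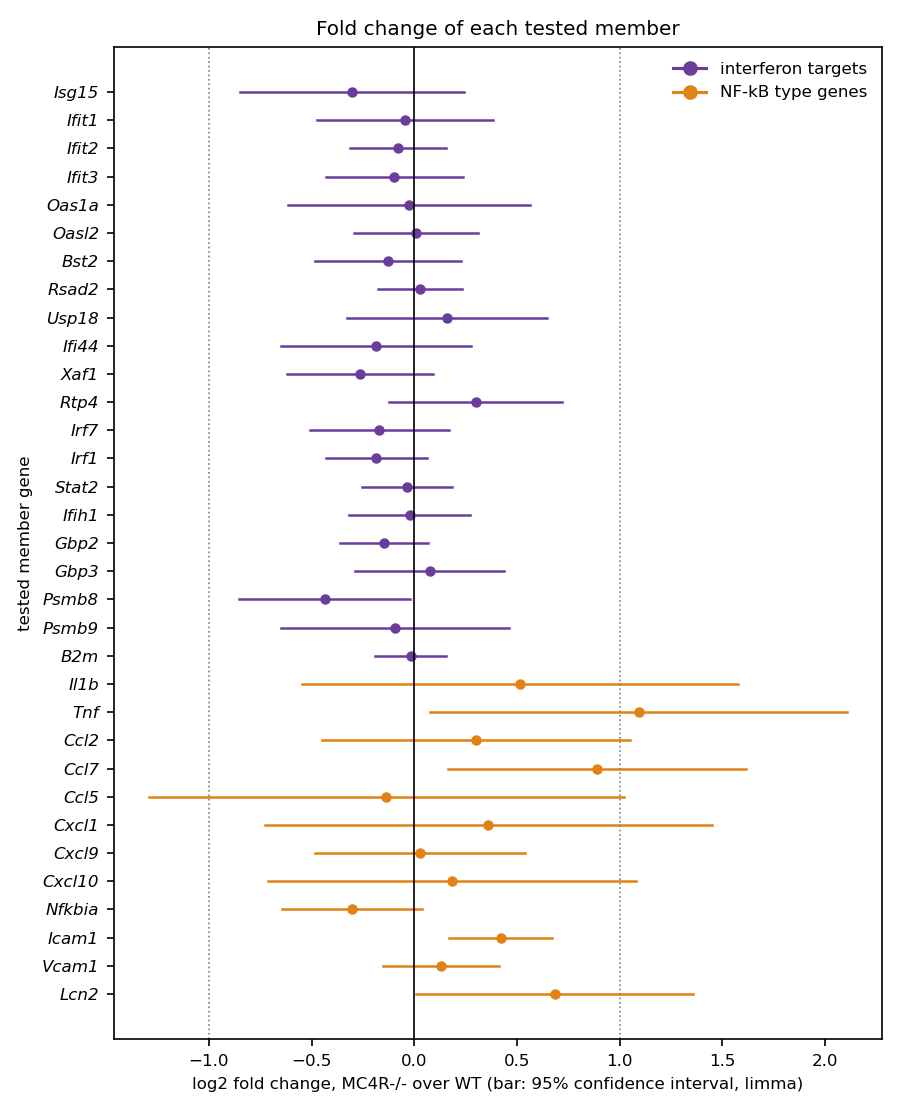
Log2 fold change of MC4R-/- over WT (points) with the 95% confidence interval from limma (bars) for the 33 tested members, on the log2(normalized count + 1) scale, with dotted lines at a 2-fold change. The bars of all 21 interferon targets stay between the dotted lines. Those of 8 of the 12 NF-kB type genes cross a dotted line, and that of Ccl5 crosses both.

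The cytokine transcripts were close to the limit of detection. Tnf (chr17:35199367-35202007), the founding cytokine of its family, had 31 reads in MC4R-/- and 10 in WT. Its normalized count was 2.61 at the lowest, 3.98 at the median and 10.2 at the highest of the MC4R-/- libraries, and 4.81, 0.903, 0 and 3.52 in WT. WT replicates 1 and 4 lay inside the MC4R-/- range. The log2 fold change was 1.09 ± 0.49 (SE; limma adjusted p = 0.467) and 0.62 without WT replicate 3. Il1b, the main secreted interleukin 1, had 21 reads in MC4R-/- and 11 in WT, and Il6 had 6 and 1. Such read totals cover 6 MC4R-/- and 4 WT libraries. The mean normalized count of Il1b was 3.50 in MC4R-/- and 2.55 in WT. Its log2 fold change was 0.51 ± 0.52 (SE) and 0.0051 without WT replicate 3.

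Among the 6 chemokines, 5 were higher and 1 was lower. Ccl7 (chr11:82045712-82047525), which attracts monocytes through CCR2, was at 7.07 at the lowest, 12.0 at the median and 26.4 at the highest of the MC4R-/- libraries, and at 3.85, 8.12, 4.15 and 12.3 in WT. WT replicates 2 and 4 lay inside the MC4R-/- range, and MC4R-/- replicate 4 was above the rest. The log2 fold change was 0.89 ± 0.35 (SE; limma adjusted p = 0.372; exact permutation p = 0.081) and 0.69 without MC4R-/- replicate 4. Ccl2, the other monocyte attractant of this locus, was at 16.0 ± 8.09 (SD, n = 6) and 12.5 ± 5.92 (SD, n = 4), with a log2 fold change of 0.30 ± 0.36 (SE) that was 0.0085 without WT replicate 1.

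Cxcl9 (chr5:92321331-92328079), a T-cell attractant induced by type II interferon, was the most abundant chemokine of the set. It was at 18.3 at the lowest, 35.9 at the median and 47.9 at the highest of the MC4R-/- libraries, and at 37.5, 19.9, 44.3 and 37.0 in WT. All WT values lay inside the MC4R-/- range, and the log2 fold change was 0.03 ± 0.25 (SE; limma adjusted p = 0.988) and -0.21 without WT replicate 2. WT replicate 2, high in T-cell markers, was the lowest WT library for Cxcl9. Cxcl10, which binds the same receptor, had 20 reads in MC4R-/- and 10 in WT. Cxcl1, a neutrophil attractant, had 30 and 16, and the T-cell attractant Ccl5 12 and 7. These totals cover 6 MC4R-/- and 4 WT libraries. Mean normalized counts in MC4R-/- and WT were 3.24 and 2.51 for Cxcl10, 4.94 and 4.18 for Cxcl1, and 1.98 and 1.70 for Ccl5. The log2 fold change of Ccl5 was -0.14 ± 0.56 (SE). For Cxcl1 the log2 fold change was 0.36 ± 0.53 (SE) and -0.00012 without WT replicate 2. Cxcl9 and Cxcl10 are also interferon targets and are counted here as the list places them.

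Icam1 (chr9:21015940-21028814), the endothelial ligand of leukocyte integrins, had the lowest p of the 33 members. It was at 95.2 at the lowest, 112 at the median and 123 at the highest of the MC4R-/- libraries, and at 77.9, 70.4, 95.5 and 88.0 in WT. WT replicate 3 lay just above the lowest MC4R-/- library, and the other libraries were separated. The means were 111 ± 10.9 (SD, n = 6) and 83.0 ± 11.1 (SD, n = 4), and the log2 fold change was 0.42 ± 0.12 (SE; 95% interval 0.17 to 0.67). The limma adjusted p was 0.155, the edgeR one 0.142, the DESeq2 one 0.121 and the exact permutation p 0.00952. When each library was left out in turn, the limma adjusted p was 0.0944 to 0.305. Vcam1, the other adhesion molecule, was at 162 ± 22.9 (SD, n = 6) and 150 ± 35.6 (SD, n = 4), with a log2 fold change of 0.13 ± 0.14 (SE) that was -0.02 without WT replicate 2. The summed level of 10 endothelial markers was 10199 to 12409 in MC4R-/- and 10587 to 11844 in WT libraries, and its part in the Icam1 value was not tested.

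Nfkbia (chr12:55489409-55492647) lay the other way. It was at 136 at the lowest, 186 at the median and 243 at the highest of the MC4R-/- libraries, and at 195, 308, 249 and 187 in WT replicates 1 to 4. WT replicates 2 and 3 were above every MC4R-/- library. The log2 fold change was -0.30 ± 0.16 (SE; limma adjusted p = 0.596) and -0.16 without WT replicate 2.

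Lcn2 (chr2:32384637-32387739) encodes lipocalin 2, a secreted protein that binds bacterial iron carriers. It was at 11.4 at the lowest, 22.3 at the median and 24.4 at the highest of the MC4R-/- libraries, and at 12.5, 19.0, 4.15 and 15.0 in WT. WT replicate 3 was below the rest, and the other WT libraries lay inside the MC4R-/- range. The log2 fold change was 0.68 ± 0.33 (SE; limma adjusted p = 0.51) and 0.27 without WT replicate 3. Saa3, an acute phase apolipoprotein, had 1 read in MC4R-/- and 5 in WT.

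Markers of macrophages were also more often higher in MC4R-/-. Of 15 tested, 14 were higher and 1 lower, with a median log2 fold change of 0.23. With limma 0 passed the adjusted threshold and 6 had an unadjusted p below 0.05, against 0.459% and 9.6% of all genes tested. edgeR called 0 of them and DESeq2 2, against 0.411% and 1.18% of the genes given an adjusted p. Without WT replicate 2, where limma called 118 genes rather than 67, C1qa (adjusted p = 0.0453) and C1qb (0.021) passed. Both encode chains of the complement component C1q. C1qb and the integrin gene Itgam were higher in MC4R-/- without overlap between the groups. Over all genes tested, 2.28% did not overlap in either direction. The summed level of the 15 macrophage markers was 3179 to 3688 in MC4R-/- and 2671 to 3239 in WT libraries. For neutrophils, 5 of 9 markers were tested and their sum was 14.5 to 60.6 in MC4R-/- and 22.6 to 42.9 in WT libraries, with the granule gene Camp at 0 in every library. Of 10 fibroblast markers, 9 were higher, and Lum passed the threshold. The part of these cells in the NF-kB type values was not tested.

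**Figure D4:**
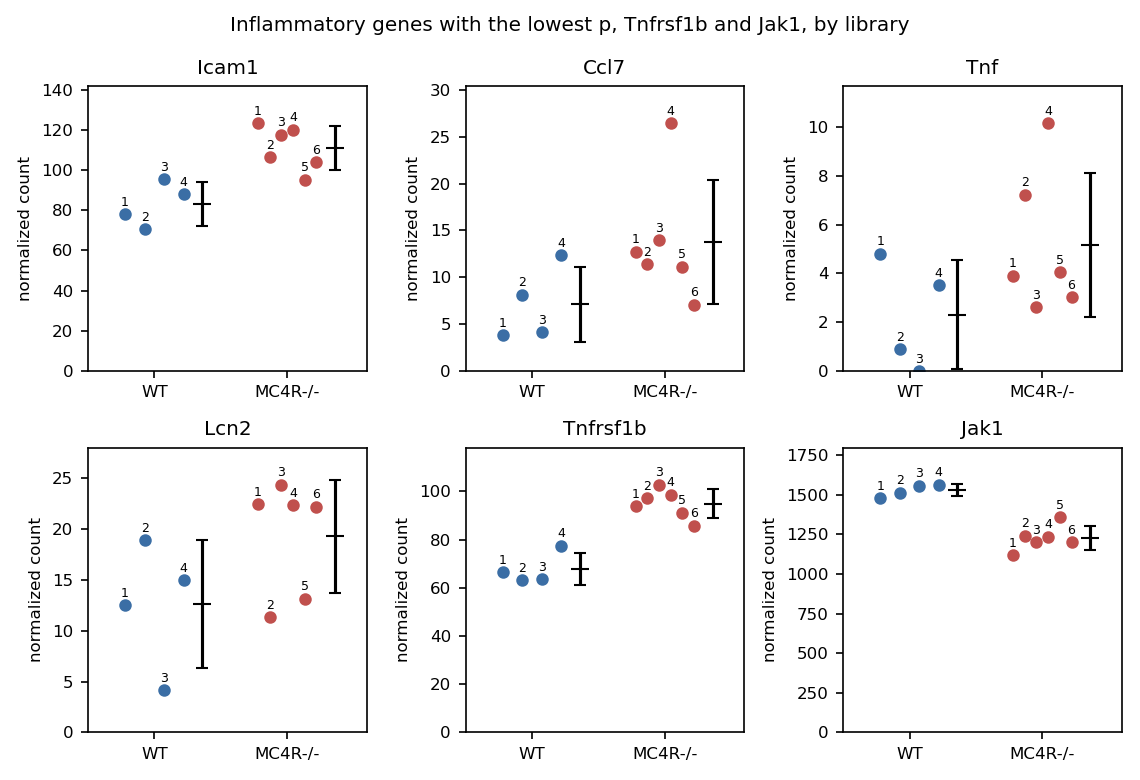
Normalized counts of Icam1, Ccl7, Tnf, Lcn2, Tnfrsf1b and Jak1 in each WT (blue) and MC4R-/- (red) library, numbered by replicate, with the mean ± SD beside each group. The groups overlap for the first 4 genes and are separated for Tnfrsf1b, higher in MC4R-/-, and Jak1, lower in MC4R-/-.

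The members are compared with other genes of their pathways. Over all genes tested, 0.459% passed the limma threshold and 2.28% did not overlap between the groups. edgeR and DESeq2 called 0.411% and 1.18% of the genes given an adjusted p. Among 10 interferon receptors and JAK-STAT factors, 2 were higher and 8 lower, with a median log2 fold change of -0.15, and 1 fell past the threshold. This was Jak1 (chr4:101151974-101265282), the kinase shared by the type I and type II interferon receptors and by many cytokine receptors. It was at 1120 to 1358 in MC4R-/- libraries and 1480 to 1564 in WT libraries, without overlap. The means were 1227 ± 77.7 (SD, n = 6) and 1529 ± 39.5 (SD, n = 4), with a log2 fold change of -0.32 ± 0.07 (SE; limma adjusted p = 0.0195). The edgeR adjusted p was 0.0169 and the DESeq2 one 6.9e-05. The limma call was lost without MC4R-/- replicate 1 (adjusted p = 0.074), MC4R-/- replicate 2 (0.051), WT replicate 3 (0.0531) or WT replicate 4 (0.0919), and without the trend and robust steps (0.205) or with a replicate block (0.0944). It was kept without WT replicate 2 (0.0174).

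The receptor genes themselves did not pass the test, with log2 fold changes of -0.04 for Ifnar1, 0.04 for Ifnar2, -0.05 for Ifngr1 and 0.02 for Ifngr2. Of 9 interferon ligand genes, 8 had 0 reads in every library, and Ifng was at 0.871 in MC4R-/- replicate 3 and at 0 elsewhere. Of 18 RNA and DNA sensors and adaptors tested, 7 were higher and 11 lower, and 0 passed with limma, edgeR or DESeq2. An unadjusted limma p below 0.05 was found for 0 of them, against 9.6% of all genes tested.

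Of 55 other interferon-stimulated genes tested, 17 were higher and 38 lower, with a median log2 fold change of -0.07. limma, edgeR and DESeq2 called 0 of them, and 5 had an unadjusted limma p below 0.05, against 9.6% of all genes tested. The lowest p among them was that of Gbp6, another guanylate-binding protein, at 245 ± 35.2 (SD, n = 6) and 307 ± 34.2 (SD, n = 4), with a limma adjusted p of 0.202. Irgm1, an immunity-related GTPase, was lower in MC4R-/- without overlap between the groups (limma adjusted p = 0.338), and 2.28% of all genes tested did not overlap. Of 16 other class I genes, 1 was higher and 15 lower, and 0 were called by the 3 tools. An unadjusted limma p below 0.05 was found for 0 of these 16, against 9.6% of all genes tested.

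On the NF-kB side, 3 of 15 subunits, inhibitors and kinases were higher and 12 lower, and 0 were called by the 3 tools. Of these 15, 1 had an unadjusted limma p below 0.05, against 9.6% of all genes tested. That was Nfkb2, the precursor of p52, lower in MC4R-/- without overlap (133 ± 4.24, SD, n = 6, against 161 ± 17.9, SD, n = 4; limma adjusted p = 0.338). Over all genes tested, 2.28% did not overlap. Of 22 cytokine and Toll-like receptors and adaptors tested, 16 were higher and 6 lower, with 0 called by the 3 tools. An unadjusted limma p below 0.05 was found for 5 of these 22, against the same 9.6%. Tnfrsf1b, the second receptor of TNF, was at 94.9 ± 5.97 (SD, n = 6) and 67.7 ± 6.68 (SD, n = 4), without overlap, with a log2 fold change of 0.48 ± 0.12 (SE; limma adjusted p = 0.0733).

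Of 33 other NF-kB and acute phase targets tested, 20 were higher and 13 lower, with 0 called by the 3 tools. An unadjusted limma p below 0.05 was found for 4 of them, against 9.6% of all genes tested. These 4 were the alarmin Il33, the cholesterol hydroxylase Ch25h, and the chemokines Ccl6 and Ccl11. Il33 was at 48.3 ± 5.64 (SD, n = 6) and 32.2 ± 8.50 (SD, n = 4), with a log2 fold change of 0.60 ± 0.18 (SE; limma adjusted p = 0.182). Ccl6 was at 179 ± 36.5 (SD, n = 6) and 120 ± 31.2 (SD, n = 4), with a limma adjusted p of 0.24 that was 0.0218 without WT replicate 2, 0.0179 without MC4R-/- replicate 5, 0.04 with a replicate block and 0.468 without WT replicate 3. Ch25h, at 4.04 to 8.71 in MC4R-/- and 1.38 to 5.28 in WT libraries, had a log2 fold change of 1.2. That of Ccl11 was -0.61.

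Members differed widely in level. Per kilobase of exon, the mean normalized count was 1588 for B2m, 129 for Nfkbia, 93.8 for Bst2 and 58.0 for Gbp2, against 2.46 for Tnf, 1.64 for Il1b and 0.280 for Il6.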

How the data were processed

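Polyadenylated RNA of 6 MC4R-/- and 4 WT samples was sequenced, from a stranded kit per the labels' protocols. The submitters' processing notes name build mm10 and, among others, TopHat2 2.1.0, Cufflinks 2.2.1 and Cuffnorm 2.2.1.1. Neither the annotation nor the strand setting used for counting is given in the sources used here. Signal values deposited by the authors behave as gene counts over a library size factor: in every library at least 99.9862% of them were whole multiples, within 0.1, of what 1 read is worth. They are not divided by gene length. Row identifiers were matched to symbols through RefSeq (GRCm38.p6), then GENCODE, for 24107 of 24160 rows.

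The genotypes were compared with limma 3.58.1 in R 4.3.3 (trend and robust) on log2(normalized count + 1), which understates fold changes of low genes. The 14611 genes with a mean of at least 1 were tested, two-sided, with Benjamini-Hochberg adjustment over them and a threshold of 0.05. Single genes were also compared by exact two-sided permutation over 210 splits. Recovered reads were also tested with DESeq2 1.42.0 and the quasi-likelihood test of edgeR 4.0.16. Further alternatives were other pseudocounts, filters, normalizations and weights, a replicate block, and leaving libraries out. The fit was tested on simulated data in which only genes of higher level were changed. That run does not cover the low cytokine and chemokine genes.

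The members and lists were chosen with earlier results of these data known, and alternatives for the pathway lists and 8 of their genes were added after the data were seen. The 4 WT values and the lowest, median and highest of the 6 MC4R-/- values are given for members with an adjusted or unadjusted p below 0.05, with groups that do not overlap, or with the highest level of their role or the largest fold change of their class. Pathway genes named come from those called and up to 4 per list with the smallest p, and 1 gene that this rule takes is not reported here. Psmb9, Ifit1, Vcam1, Ccl2, Tap1, C1qa, C1qb, Itgam, the interferon receptors and the read counts of low genes were chosen after their values were seen.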

Additional observations from a re-analysis of the deposited data

Results flagged for a closer look

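Of the 70 pairs of a member and a group, 8 held a library whose gap to its nearest neighbour passed the 95% limit of Dixon's test, which chance passes in about 1 in 20 groups. WT replicate 2 was the highest WT library for Irf1 at 274.4 (next 191.9), Psmb8 at 158 (next 83.07) and Psmb9 at 66.8 (next 27.29), and it is the library with T-cell transcripts. MC4R-/- replicate 4 was the lowest of its group for Psmb8 at 45.77 (next 68.17) and the highest for Ccl7 at 26.44 (next 13.94). For Cxcl10, with 10 reads over the 4 WT libraries, WT replicate 1 was the lowest at 1.924 (next 2.641). That gap is smaller than the worth of 1 read in any WT library (0.880 to 1.38). The other 2 rest on a single read: Il6 was at 0.8804 in WT replicate 4 and at 0 in the other WT libraries, and Saa3 was at 0.8712 in MC4R-/- replicate 3 and at 0 in the other MC4R-/- libraries.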

How the results depend on the processing

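Over 23 alternatives, 0 interferon targets and 0 NF-kB type genes passed the adjusted threshold, and the lowest adjusted p of any member was 0.0944. The median log2 fold change was -0.17 to -0.04 for the interferon targets and 0.17 to 0.49 for the NF-kB type genes. Of the 33 tested members, 19 kept their sign and 14 changed it in some alternative. Over all genes, 67 were called, against 122 with DESeq2, 118 with library weights, 0 without the trend and robust steps, 167 without WT replicate 2 and MC4R-/- replicate 5, and 26 (without WT replicate 4) to 118 (without WT replicate 2) with each library left out. Leaving out WT replicate 3 or MC4R-/- replicates 1, 2 or 3 also moved this count by over 1.5 times, to 31, 37, 29 and 44. In the pathway lists 1 gene was called, against 0 without the trend and robust steps, 3 without those 2 libraries, and 0 to 2 with each library left out. Correlations of same-numbered deviations were -0.125, -0.152, -0.277 and -0.075 over 9164 genes, so no sign of pairing by replicate number was seen. Pairing of another kind was not tested. A replicate block over replicates 1 to 4 called 51 genes, lost Jak1 (limma adjusted p = 0.0944) and called Ccl6 (limma adjusted p = 0.04). Signs that changed were, as log2 fold changes, with the replicate block Oas1a 0.225, Oasl2 -0.0436, Ifih1 0.0531 and Cxcl9 -0.0102. Without WT replicate 2 and MC4R-/- replicate 5 they were Ifit1 0.117, Oas1a 0.101, Oasl2 -0.0939, Stat2 0.0145, Gbp3 -0.139, Psmb9 0.251, B2m 0.0718, Cxcl9 -0.215 and Vcam1 -0.0721. With library weights they were Oasl2 -0.0311, Gbp3 -0.085, B2m 0.0221 and Vcam1 -0.0172, and with quantile normalization Ifih1 0.00385. Ccl5 was at 0.198 with DESeq2, 0.171 with edgeR and 0.019 with a pseudocount of 5. With each library left out, the ranges were B2m -0.0794 to 0.0759, Ccl5 -0.352 to 0.116, Cxcl1 -0.000118 to 0.743, Cxcl9 -0.211 to 0.200, Gbp3 -0.138 to 0.220, Ifih1 -0.128 to 0.106, Ifit1 -0.228 to 0.0923, Ifit3 -0.235 to 0.0227, Oas1a -0.241 to 0.103, Oasl2 -0.110 to 0.0728, Psmb9 -0.316 to 0.262, Rsad2 -0.0196 to 0.0884, Stat2 -0.123 to 0.0324, Vcam1 -0.0169 to 0.235. The cause of these changes was not tested. Depth limits Tnf, Il1b, Il6, Ccl5, Cxcl1, Cxcl10, Saa3 and the pathway gene Ch25h, which had few reads.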
